A study of Mus musculus with 6 samples.

Results

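The 10 genes described here encode the proteins that coat, join and build lipid droplets: the perilipins Plin1, Plin2, Plin3, Plin4 and Plin5, the CIDE genes Cidea, Cideb and Cidec, and the assembly genes Fitm2 and Bscl2. They were chosen by name, and each matched 1 of the 45320 Ensembl gene identifiers in the deposited tables. The tissue was whole brown fat of C57BL/6 mice, which at 4 weeks of age were put on a calorie-rich diet of much sugar and fat for 4 weeks. After that, treated mice were given RO5508887, which inhibits the protease BACE1, together with this diet, and untreated mice stayed on the diet alone, so both groups carry the diet and no group on a lean diet is described here. The treated group has samples 17, 33 and 35 and the untreated group samples 13, 14 and 15. All 45320 values of samples 33 and 35 were identical, so these 2 samples were counted as 1 library, treated 33/35, which leaves 2 treated libraries against 3 untreated ones. Whether a sample was 1 animal or a pool is not in the labels, and the p-values therefore cover the spread between libraries, technical spread included.

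A lipid droplet is a core of neutral lipid inside a phospholipid monolayer that grows out of the endoplasmic reticulum. Perilipins bind this surface and control how lipases reach the core, CIDE proteins gather where droplets touch and move lipid from the smaller to the larger one, and FITM2 and seipin (the product of Bscl2) act in the endoplasmic reticulum when droplets form. Brown adipocytes keep many small droplets next to mitochondria and burn their lipid to make heat, whereas white adipocytes store most of theirs in a single large droplet.

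Plin4 and Plin5 are close neighbours in GRCm38, and Plin3 lies further along the same chromosome. Plin4 (chromosome 17, 56100591 to 56109803) and Plin5 (chromosome 17, 56111601 to 56117596) lie on the minus strand with 1797 bases between them. Plin3 (chromosome 17, 56277476 to 56292873) follows on the same strand, 159.9 kilobases beyond Plin5. The other genes lie apart from these, with Plin1 on chromosome 7 (79720218 to 79732903), Plin2 on chromosome 4 (86648386 to 86670060), Cidec on chromosome 6 (113424634 to 113435760), Cideb on chromosome 14 (55754050 to 55758458), Fitm2 on chromosome 2 (163466379 to 163472629) and Bscl2 on chromosome 19 (8837467 to 8848683). The longest annotated coding sequence of Plin4 has 1403 codons, against 425 to 517 in the other perilipins, 217 to 249 in the CIDE genes, 262 in Fitm2 and 443 in Bscl2. Cideb needs caution, because 76.3% of its exonic bases overlap Nop9 on the opposite strand and whether the authors counted by strand is not given in the sources used here.

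Promoters are shown for 4 of the genes compared below. Plin1 and Cidec are general to adipocytes, Plin5 is typical of brown fat, and Plin4 is its neighbour. Whether the promoter sequences bear on the levels of these genes was not tested. Each sequence has the 250 bases before the start site in RefSeq on GRCm38.p6, written 5′ to 3′ on the minus strand, at chr7:79732777-79733026 for Plin1, chr6:113435761-113436010 for Cidec, chr17:56117549-56117798 for Plin5 and chr17:56109783-56110032 for Plin4.
Plin1: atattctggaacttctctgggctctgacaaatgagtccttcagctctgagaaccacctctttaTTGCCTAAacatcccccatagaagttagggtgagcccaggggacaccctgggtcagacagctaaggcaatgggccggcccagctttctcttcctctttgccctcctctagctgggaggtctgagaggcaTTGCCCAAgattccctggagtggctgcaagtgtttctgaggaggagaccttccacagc
Cidec: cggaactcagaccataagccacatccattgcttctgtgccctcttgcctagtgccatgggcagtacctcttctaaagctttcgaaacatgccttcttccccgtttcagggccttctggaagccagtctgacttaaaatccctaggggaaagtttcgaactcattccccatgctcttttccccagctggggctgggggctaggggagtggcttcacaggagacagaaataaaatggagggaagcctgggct
Plin5: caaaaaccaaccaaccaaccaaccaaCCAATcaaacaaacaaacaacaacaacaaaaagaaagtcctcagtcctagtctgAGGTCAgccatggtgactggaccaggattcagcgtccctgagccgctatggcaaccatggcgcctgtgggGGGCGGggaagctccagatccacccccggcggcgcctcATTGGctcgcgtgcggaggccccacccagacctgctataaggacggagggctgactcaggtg
Plin4: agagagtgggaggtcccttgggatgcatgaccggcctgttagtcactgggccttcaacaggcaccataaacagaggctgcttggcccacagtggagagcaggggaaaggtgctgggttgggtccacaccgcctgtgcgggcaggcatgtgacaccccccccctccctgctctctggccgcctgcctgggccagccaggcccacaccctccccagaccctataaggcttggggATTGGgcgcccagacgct
Capitals mark exact matches, on either strand, to a C/EBP-type motif (TTGCNNAA, with N for any base), a nuclear receptor half-site (AGGTCA), the box named by its letters CCAAT or the GC box (GGGCGG). Plin1 held 2 C/EBP-type matches, a motif found in 9.56% of the 32851 RefSeq promoter windows of this length. Plin5 held 1 half-site (14.0% of windows), 1 GC box (32.7%) and 2 CCAAT boxes (33.8%), and Plin4 held 1 CCAAT box. Cidec held none of these, and also no TATA box (TATAAA), no match to the E-box that basic helix-loop-helix factors bind (CACGTG), and no ERR-type site (TCAAGGTCA, up to 1 mismatch) or direct repeat of the half-site with 1 base between the copies (up to 2 mismatches). Among the windows searched for 9 members, only that of Plin2 held such a repeat, which 3.24% of windows hold. RefSeq listed 2 promoters each for Cidec and Plin5 and 3 for Bscl2, and only that nearest the annotated gene start was searched. The Plin3 window lies 2362 bases from that start. No motifs overlapped in the 4 windows shown and a match is a match of letters only.

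FPKM (fragments scaled to transcript length and sequencing depth) is a level per length, so levels of different genes can be set side by side within a library. Values with the drug are those of treated 17 and treated 33/35, and values without it those of untreated 13, 14 and 15, always in that sequence. In 4 of the 5 libraries the order began with Cidea, followed by Cidec. Cidea, which promotes the transfer of lipid between touching droplets in mouse brown fat and lies on chromosome 18, was at 767 and 903 FPKM in treated 17 and treated 33/35, against 991, 124 and 1066 FPKM in untreated 13, 14 and 15. Its promoter was not analysed here. Cidec, the CIDE gene of adipocytes at large and of the single large droplet, measured 464 and 566 FPKM in the treated libraries, against 644, 265 and 582 FPKM in untreated 13, 14 and 15. In untreated 14 the order was Cidec, Plin1, Plin4, Plin2 and only then Cidea. Cideb, best known from liver and gut, was the lowest member in every library, at 9.93 and 6.49 FPKM with the drug and 8.41, 1.45 and 9.89 FPKM without it. Its antisense neighbour Nop9 measured 3.82 and 3.46 FPKM with the drug and 3.12, 5.30 and 3.36 FPKM without it.

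**Figure D1:**
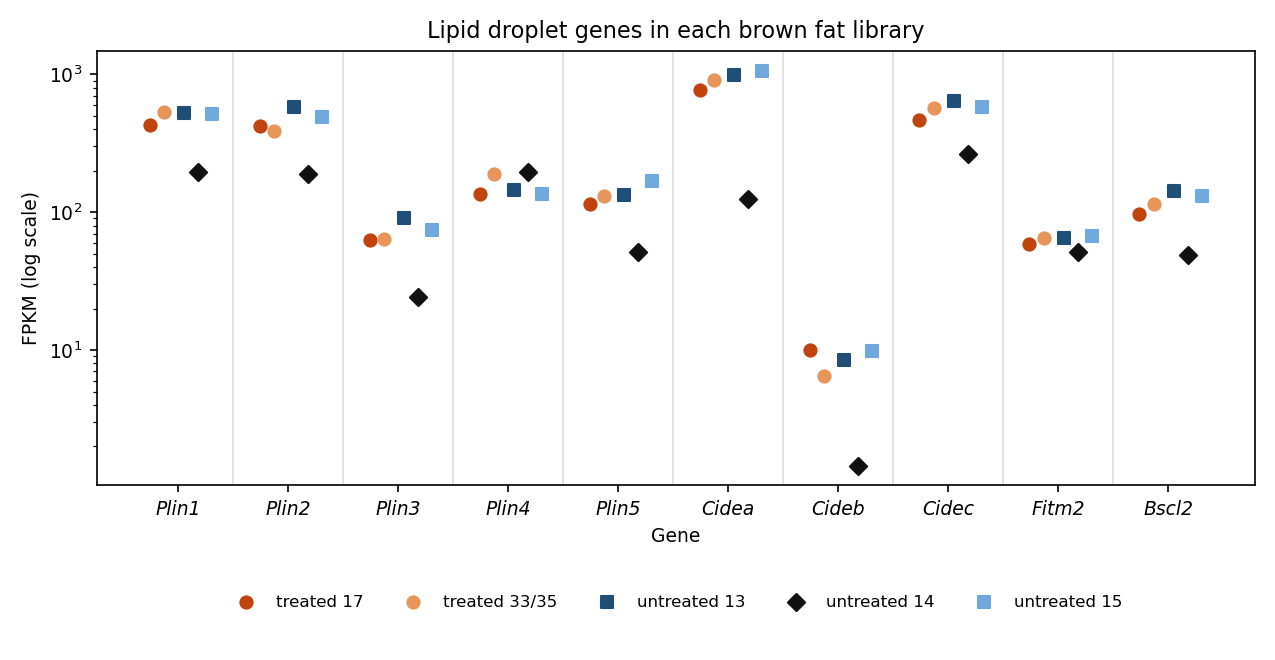
FPKM (log scale) of each of the 10 lipid droplet genes, with 1 point per library, treated libraries (circles) left of untreated ones (squares, and a diamond for untreated 14). Untreated 14 is the lowest point for 9 genes and the highest for Plin4, and the treated points lie within the range of the untreated points for 8 genes, with Plin1 in treated 33/35 and Cideb in treated 17 just above it.

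Among the perilipins, Plin1, the adipocyte coat protein that holds back lipolysis until it is phosphorylated, was at 429 and 529.7 FPKM in treated 17 and treated 33/35, against 527, 195 and 513 FPKM in untreated 13, 14 and 15. Plin2, the coat of small droplets in most cell types, measured 421 and 388 FPKM with the drug, against 577, 189 and 486 FPKM without it. Both were lowest in untreated 14. Plin5, which couples droplets to mitochondria in tissues that burn fat, measured 115 and 131 FPKM in the treated libraries, against 132, 51.3 and 168 FPKM in untreated 13, 14 and 15. Plin3, a ubiquitous exchangeable perilipin, measured 63.0 and 63.8 FPKM with the drug and 91.1, 24.3 and 74.9 FPKM without it. Plin4, a perilipin of adipocytes and, in mouse, of striated muscle, ran the other way: it measured 135 and 189 FPKM with the drug and 146, 194 and 135 FPKM without it, so its highest value was in the library where the other members were lowest.

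The assembly genes differed in how steady they were. Fitm2 measured 58.4 and 64.5 FPKM with the drug and 65.2, 51.4 and 67.5 FPKM without it, a 1.31-fold range over the 5 libraries. Bscl2, whose loss in humans and mice causes lipodystrophy, measured 97.5 and 114 FPKM with the drug and 143, 48.7 and 131 FPKM without it, a 2.94-fold range. The other ranges were 8.59-fold for Cidea, 6.85-fold for Cideb, 3.76-fold for Plin3, 3.28-fold for Plin5, 3.05-fold for Plin2, 2.72-fold for Plin1, 2.44-fold for Cidec and 1.44-fold for Plin4. The median over 13527 tested genes was 1.62-fold on FPKM + 0.5, with 5.60% of them ranging more widely than Cidea and 77.6% more widely than Fitm2.

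The libraries differed in their muscle and brown fat transcripts: untreated 14 was the highest in muscle and the lowest in brown fat markers, and both treated libraries held far more muscle transcripts than untreated 13 and 15. The 31 skeletal muscle markers with an identifier summed to 17196 and 7530 FPKM in the treated libraries, against 177, 42546 and 166 FPKM in untreated 13, 14 and 15, and Ckm, the muscle creatine kinase, was at 1262 and 531 FPKM against 2.25, 2733 and 1.46 FPKM. As shares of the FPKM outside mitochondrial genes these sums are 3.48% and 1.503% with the drug and 0.0340%, 8.75% and 0.0330% without it. The 16 brown adipocyte markers summed to 4222 and 4972 FPKM with the drug and to 5723, 2009 and 6088 FPKM without it, with Ucp1, the heat-producing uncoupling protein, at 1119 and 1321 FPKM against 1837, 227 and 1912 FPKM. The 15 general adipocyte markers summed to 9304 and 10900.2 FPKM with the drug and to 11668, 6743 and 10000.2 FPKM without it. In bulk tissue, fewer cells of a type and less RNA per cell cannot be told apart.

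Of the 10 droplet genes, 9 were lowest in untreated 14, as were 43.6% of all tested genes. The same was true of 30 of the 47 tested other droplet genes, 13 of the 16 brown adipocyte markers and 11 of the 15 general adipocyte markers. Against the median of the adipocyte markers in its own library, on the log2 scale, Cidea was at 0.91 and 0.76 in the treated libraries and at 0.86, -1.08 and 1.16 in untreated 13, 14 and 15. Cidec kept closer to that median, at 0.19 and 0.082 with the drug and 0.24, 0.011 and 0.29 without it. Plin4 was at -1.59 and -1.4995 with the drug and at -1.91, -0.43 and -1.82 without it, nearest to the adipocyte median in untreated 14. The part of skeletal muscle in the levels of these genes was not tested.

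The 2 brown-fat-typical genes did not behave as a pair when set over the 2 general adipocyte genes within each library. Cidea over Plin1 was 1.79 and 1.71 in the treated libraries, against 1.88, 0.637 and 2.08 in untreated 13, 14 and 15. Cidea over Cidec was 1.65 and 1.60 with the drug, against 1.54, 0.469 and 1.83 without it. In both ratios untreated 14 was far below the other 4 libraries. Plin5 over Plin1 was 0.268 and 0.246 in the treated libraries, against 0.251, 0.263 and 0.328 in untreated 13, 14 and 15. Plin5 over Cidec was 0.248 and 0.231 with the drug, against 0.205, 0.194 and 0.289 without it. Plin5 therefore stayed within 0.41 of itself on the log2 scale relative to Plin1 across the 5 libraries, against a span of 1.71 for Cidea, and untreated 14 lay inside the range of the others for Plin5 over Plin1. Relative to Cidec the span was 0.57 for Plin5 and 1.96 for Cidea, with untreated 14 the lowest library for both. These ratios do not depend on how a library is scaled.

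**Figure D2:**
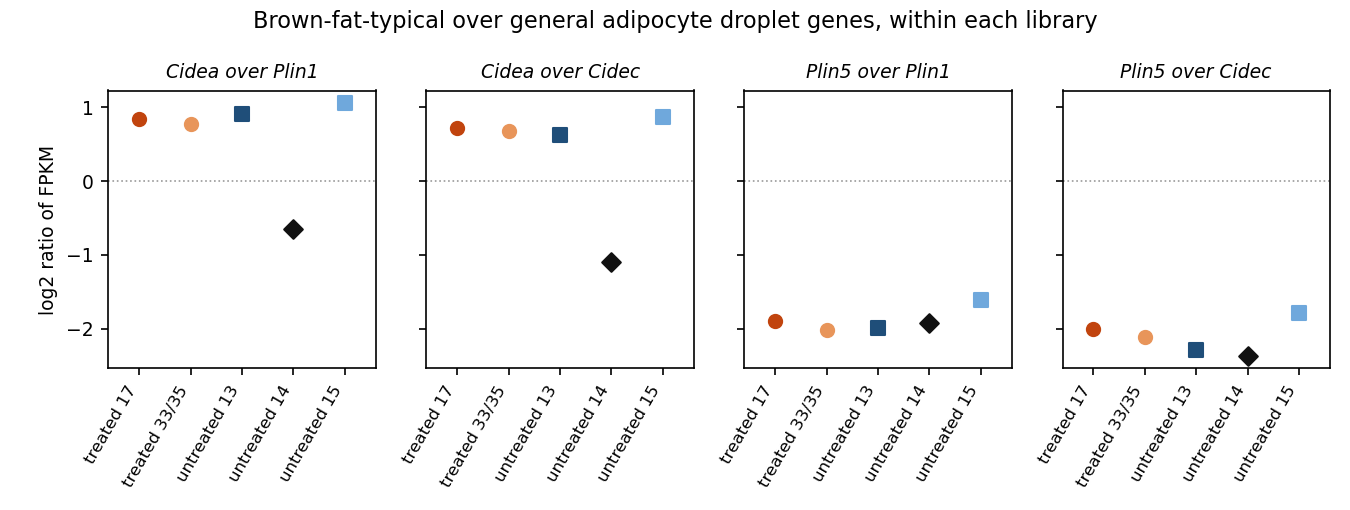
log2 ratios of FPKM within each library for Cidea and Plin5 over Plin1 and Cidec, with 1 point per library and the treated libraries on the left of each panel. In untreated 14 the ratio of Cidea to Plin1 was -0.65, against 0.77 to 1.06 in the other 4 libraries, while Plin5 over Plin1 lay between -2.02 and -1.61 in all 5.

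Treated and untreated libraries overlapped in all 4 of these ratios. Cidea over Plin1 averaged 0.80 ± 0.047 on the log2 scale in treated libraries (SD, n = 2) and 0.44 ± 0.95 in untreated libraries (SD, n = 3), a difference of 0.37, and Cidea over Cidec averaged 0.70 ± 0.036 and 0.13 ± 1.07, a difference of 0.57. Plin5 over Plin1 averaged -1.96 ± 0.087 in treated libraries and -1.84 ± 0.21 in untreated ones, and Plin5 over Cidec -2.06 ± 0.076 and -2.15 ± 0.31. Each difference was smaller than the SD of the untreated libraries. No p is given, since a two-sided exact permutation test of 2 against 3 libraries cannot go below 0.2. Without untreated 14 the differences were -0.18 for Cidea over Plin1 and -0.047 for Cidea over Cidec, so that library set the sign of both.

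The composition of each family followed the same division. Plin1 and Plin2 made up most of the perilipin FPKM, with Plin1 at 36.9% and 40.7% in the treated libraries, against 35.8%, 29.8% and 37.2% in untreated 13, 14 and 15. The share of Plin4 was 11.6% and 14.5% with the drug, against 9.88%, 29.7% and 9.79% without it. Plin4 thus held about as much of the perilipin FPKM as Plin1 in untreated 14 and far less in the other 4 libraries. Cidea held 61.8% and 61.2% of the CIDE FPKM in the treated libraries, against 60.3%, 31.8% and 64.3% in untreated 13, 14 and 15, and Cidec held nearly all of the rest. The shares of all 8 genes overlapped between the groups.

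**Figure D3:**
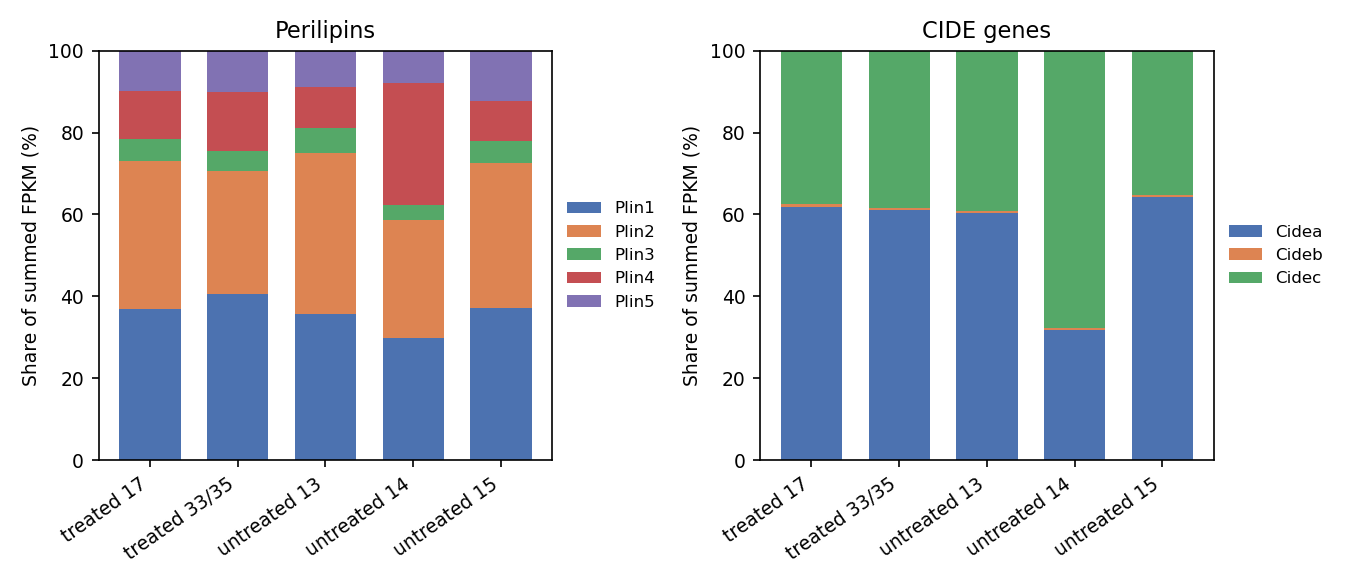
Share of the summed FPKM (%) held by each perilipin (left) and each CIDE gene (right) in every library, with the treated libraries left of the untreated ones. Untreated 14 has the largest Plin4 share, 29.7%, and the smallest Cidea share, 31.8%.

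Treatment with the BACE1 inhibitor was the comparison of the study's design, and 0 of the 10 droplet genes passed it. With limma on log2(FPKM + 0.5), two-sided and Benjamini-Hochberg adjusted over all 13527 tested genes, each member had an adjusted p of 1, and 0 were under an unadjusted p of 0.05. Among all tested genes 6 passed, which is 0.0444%. The groups overlapped for all 10 members, whereas they did not overlap for 8.68% of tested genes. All 10 members had a higher mean on the log2 scale in the treated libraries, as did 64.3% of all tested genes, and the median log2 fold change of the members was 0.18, against 0.061 over all tested genes.

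Cidea averaged 835 ± 96.2 FPKM in treated libraries (SD, n = 2) and 727 ± 523 FPKM in untreated libraries (SD, n = 3). Its log2 fold change, treated minus untreated, was 0.71 (SE 1.06, 95% interval -2.06 to 3.48). That of Plin5 was 0.23 (SE 0.56), with means of 123 ± 10.8 and 117 ± 59.8 FPKM. Plin1 averaged 479.6 ± 70.9 FPKM with the drug and 412 ± 188 FPKM without it, and its log2 fold change was 0.35 (SE 0.52). For Cidec the means were 515 ± 72.2 and 497 ± 204 FPKM and the log2 fold change 0.15 (SE 0.46). The SE of Cidea was 0.12 without untreated 14. The narrowest interval was that of Fitm2, with means of 61.4 ± 4.29 FPKM in treated and 61.4 ± 8.72 FPKM in untreated libraries and a log2 fold change of 0.0093 (95% interval -0.49 to 0.51). Plin4 had 0.034 (95% interval -0.66 to 0.73). The remaining members, Plin2, Plin3, Cideb and Bscl2, had log2 fold changes between 0.10 and 0.60.

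Leaving out untreated 14 turned the direction of 9 members. Their log2 fold changes were then -0.30 for Cidea (SE 0.12), -0.28 for Plin5 (SE 0.15), -0.12 for Plin1 (SE 0.13), -0.26 for Cidec (SE 0.14), -0.39 for Plin2 (SE 0.12), -0.38 for Plin3 (SE 0.13), -0.38 for Bscl2 (SE 0.12), -0.17 for Cideb and -0.11 for Fitm2, while Plin4 had 0.19 (SE 0.19). A lower mean was found in 9 members and in 48.3% of genes. Of the 10 members, 0 passed the limma test over the 13368 genes tested without that library, where 1.18% of genes passed, and 3 had an unadjusted p under 0.05 (Plin2, Plin3 and Bscl2), as did 12.2% of genes. The lowest adjusted p was 0.338, for Plin2. In 7 members (Plin2, Plin3, Plin5, Cidea, Cidec, Fitm2 and Bscl2) both treated values lay below both remaining untreated values, against 21.1% of genes. In the same 4 libraries all 30 tested skeletal muscle markers rose, 14 of 16 brown adipocyte markers and 12 of 15 general adipocyte markers had lower means with the drug, all 12 macrophage markers had higher means, and the share of muscle markers was 3.48% and 1.503% in the treated libraries against 0.0340% and 0.0330%, so in these libraries the drug and the muscle transcripts cannot be separated.

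Muscle was also added to the model as a covariate (the average of its markers on the log2 scale), leaving 2 residual degrees of freedom. In that fit 7 of the 10 members passed as higher with the drug, where 10.2% of all tested genes did. The muscle share was 0.0340%, 8.75% and 0.0330% in untreated 13, 14 and 15, so untreated 14 alone set the slope within that group. The fitted value for Cidea became 2.03 on the log2 scale (SE 0.097, adjusted p = 0.0118 by limma). Its measured treated values (767 and 903 FPKM) were nevertheless below those of untreated 13 and 15 (991 and 1066 FPKM). Plin1 had 0.97 (SE 0.086, adjusted p = 0.0135 by limma), whereas Plin4 had -0.15 (SE 0.21, adjusted p = 0.657). Leaving out untreated 14 thus turned the direction of 9 members. The muscle covariate turned that of Plin4 alone and made the fitted values of the other members larger.

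**Figure D4:**
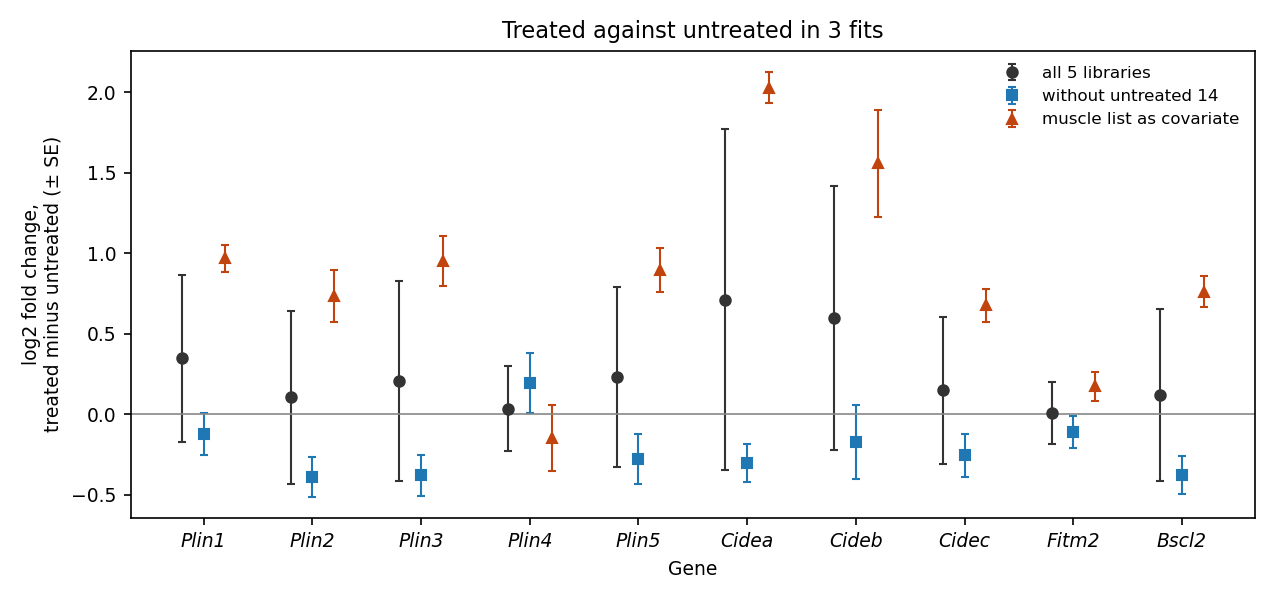
log2 fold change (treated minus untreated, ± SE) of each member in 3 fits: all 5 libraries (circles), without untreated 14 (squares) and with the muscle list as a covariate (triangles). For Cidea the 3 values are 0.71, -0.30 and 2.03, and Plin4 is the member whose value with the covariate lies below its other values.

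There were 3 ratios that kept the groups apart in all 5 libraries, untreated 14 included, and were picked after their values were seen. Cidea over Ucp1, which sets the droplet gene against the main heat gene of the same cells, was 0.685 and 0.684 in the treated libraries, against 0.5395, 0.546 and 0.557 in untreated 13, 14 and 15. On the log2 scale it averaged -0.55 ± 0.0023 (SD, n = 2) with the drug and -0.87 ± 0.024 (SD, n = 3) without it. The difference was 0.32, and 0.31 to 0.34 with any library left out. These are the libraries in which the ratio was picked for its separation, so this steadiness is no separate support. The log2 fold changes were 0.71 for Cidea and 0.39 for Ucp1. Without untreated 14 both genes were lower with the drug, at -0.30 for Cidea and -0.62 for Ucp1. Of the 13526 tested genes set over Ucp1, Cidea among them, 0.643% had a ratio to Ucp1 that was likewise higher in both treated libraries without overlap. Ucp1 was at 227 FPKM in untreated 14, against 1119 to 1912 FPKM in the other libraries. Only a gene with a similar fall there can have such a ratio, so this share does not measure how rare the separation is. Bscl2 over Plin1 was 0.227 and 0.215 with the drug, against 0.271, 0.2501 and 0.256 without it, and Cidec over Plin1 was 1.08 and 1.07 with the drug, against 1.22, 1.36 and 1.14 without it. For 4.98% of genes the ratio to Plin1 was lower in both treated libraries without overlap. These 3 were picked out of 20 ratios and were not tested.

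Other genes of the droplet were taken from a list of 50, of which 49 had an identifier and 47 were tested. With the drug 0 passed the limma test, and 1 was under an unadjusted p of 0.05, as were 0.924% of all tested genes. By their log2 means 31 were higher and 16 lower, where 64.3% of all tested genes were higher, and the median log2 fold change was 0.076. The gene of smallest p was Acsl3, an acyl-CoA synthetase of nascent droplets, at 14.9 and 11.2 FPKM in the treated libraries against 19.2, 18.7 and 17.1 FPKM in the untreated ones. The difference was -0.49 on the log2 scale (SE 0.18, unadjusted p = 0.0452, adjusted p = 1 by limma), and both treated values lay below all untreated ones. G0s2 and Hilpda, which restrain the lipase ATGL, had log2 fold changes of 0.82 (SE 0.67) and 0.34 (SE 0.30), and both were highest in treated 33/35. For G0s2 the value was 0.22 without untreated 14, and with the muscle covariate 1.61 (adjusted p = 0.0205 by limma).

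Fitm1, the paralog of Fitm2 that is typical of skeletal muscle and heart, was the fourth by p and, like the muscle markers, was highest in untreated 14 and next in the treated libraries. It measured 49.7 and 18.005 FPKM in the treated libraries, against 0.307, 162 and 0.174 FPKM in untreated 13, 14 and 15. Fitm1 over Fitm2 was 0.851 and 0.279 with the drug, against 0.0047, 3.14 and 0.0026 without it, so the muscle-type paralog was the more abundant transcript in untreated 14 alone. The difference was 2.78 on the log2 scale (SE 2.71, adjusted p = 1 by limma), and 5.37 without untreated 14 (limma adjusted p = 0.0315). Of the 47 genes only Fitm1 passed there, where 1.18% of all tested genes passed. All 30 tested skeletal muscle markers also passed as higher in that fit, in which the drug and the muscle transcripts cannot be separated. Clstn3, named after its values were seen, encodes calsyntenin 3, and in mouse adipocytes its locus also gives a shorter product found where the endoplasmic reticulum meets droplets. It measured 142 and 174 FPKM with the drug and 205, 27.8 and 190.0 FPKM without it, a 7.39-fold range. The gene-level value does not separate its transcripts.

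**Figure D5:**
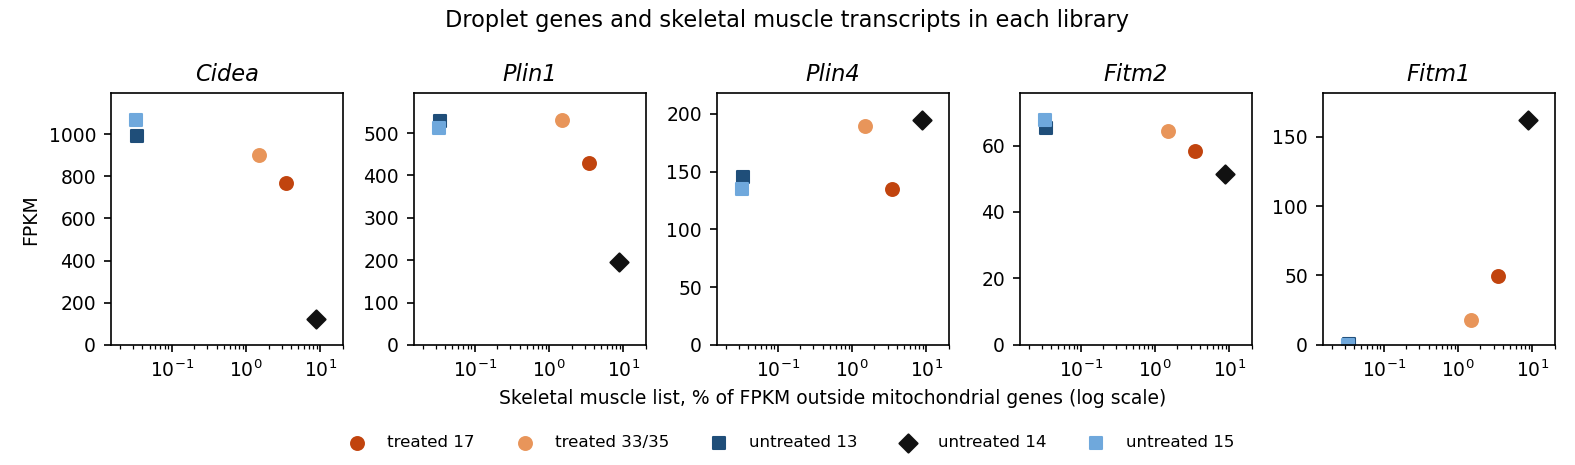
FPKM of 5 droplet genes (linear axis) against the share (%) of skeletal muscle marker transcripts in each library (log axis), with 1 point per library. At the highest muscle share, 8.75% in untreated 14, Cidea is at 124 FPKM and Plin1 at 195 FPKM, below all other libraries, Plin4 and Fitm1 are at their highest, 194 and 162 FPKM, and Fitm2 is at 51.4 FPKM.

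The genes closest in pattern to single members were searched among 11677 other tested protein-coding genes, by the root mean square difference of centred log2 values over the 5 libraries. Closest to Cidea were S100b (0.063), which is one of the brown adipocyte markers, Poln (0.075) and Rgs7 (0.084). The median over all genes searched was 1.14 for Cidea, and lower for Plin5 (0.57), Plin1 (0.54), Cidec (0.45) and Plin4 (0.33). Closest to Plin5 were Slc7a6 (0.038), Ptp4a1 (0.0401) and Ptpru (0.043), and closest to Plin1 were Ptpn4 (0.028), Tspo (0.029) and Coq8b (0.031). Cidec was nearest to Fbxl19 (0.022), Klhl42 (0.027) and AW549877 (0.029), and Plin4 to Zfp275 (0.032), Lrpap1 (0.034) and Tmem263 (0.038). Each of these 5 members had its lowest or highest value in untreated 14, so a gene with the same step there scores as close. Between members, Cidec and Bscl2 were closest (0.103).

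The listed regulators of droplet genes were 14 transcription factors and coactivators. Of these, 10 were lowest in untreated 14, as were 43.6% of all tested genes, and 3 were highest there, as were 33.5%. Pparg, the master regulator of adipocytes and an activator of Plin1, Cidec and Cidea, measured 124.5 and 157 FPKM in the treated libraries, against 197, 33.5 and 160 FPKM in untreated 13, 14 and 15. Ppara, its relative in fat-burning tissues, measured 80.5 and 106 FPKM with the drug, against 106, 18.7 and 112 FPKM without it. Groups did not overlap for 2 of the 14 regulators, where they did not overlap for 8.68% of all tested genes. Both regulators were named after their values were seen. Ppargc1a, a coactivator of mitochondrial and thermogenic genes, measured 13.1 and 12.7 FPKM with the drug, against 19.9, 15.0 and 16.0 FPKM without it. Esrrg, an orphan nuclear receptor of oxidative tissues, measured 13.7 and 13.2 FPKM with the drug, against 16.1, 17.3 and 14.7 FPKM without it. With the drug 0 of the 14 passed the limma test, and 0 were under an unadjusted p of 0.05.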

How the data were processed

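Per the labels' protocols, Trizol was used to isolate the RNA and an Illumina total RNA kit to make libraries. Each deposited table gives the authors' FPKM values of 1 sample, per the file headers. The submitters' processing notes name CASAVA 1.7 and GRCm38. Aligner, quantifier and annotation are not given in the sources used here. Read totals are unknown. The spacing of low values put depth at 1.01 and 0.959 in the treated libraries and 1, 0.810 and 0.881 in untreated 13, 14 and 15, relative to untreated 13, so no counting interval was given.

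Symbols and coordinates came from GENCODE M21, promoters from RefSeq on GRCm38.p6. The tested genes averaged 1 FPKM or more and were compared on log2(FPKM + 0.5) with limma 3.58.1 in R 4.3.3, with empirical Bayes moderation, a variance trend and 3 residual degrees of freedom, and a Benjamini-Hochberg adjusted p below 0.05 as the cut-off for a call. The pseudocount shrinks fold changes of low genes. Tested on simulated data of 13527 genes that varied like all 5 libraries, limma called 40.3% of genes shifted by 2 and 4.48% of those shifted by 1 (log2). With the spread of the libraries other than untreated 14, but still with 5 simulated libraries, it called 91.0% and 56.7%. Those rates are therefore not those of the fit that left untreated 14 out. Noise was drawn separately for each gene, so a shift shared by many genes in a single library was not simulated. Other work used Python 3.11.15, numpy 2.4.6, pandas 2.3.3, scipy 1.17.1 and matplotlib 3.10.9.

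The members, lists and tests were chosen with earlier results of these data known. All members were named. Of the other droplet genes those past the threshold, or else the 4 of smallest p, were named, with the 3 genes closest in pattern to 5 members. Ratios beyond the 4 of Cidea and Plin5 over Plin1 and Cidec, and Clstn3, Pparg, Ppara, Ppargc1a and Esrrg, were picked after their values were seen. Other marker lists, as sums in FPKM, were 184 and 233 with the drug and 146 to 249.5 without it for 12 macrophage markers, 345 and 406 against 267 to 338 for 9 endothelial markers, 238 and 219.7 against 117 to 366 for 9 white fat markers, and 5.25 and 5.05 against 4.97 to 19.7 for 10 liver and gut markers, of which Apoa4 was listed at 0 in every library. Ldaf1 and Acta1 are not analysed here, since no identifier matched.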

Additional observations from a re-analysis of the deposited data

How the results depend on the processing

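No paired analysis was possible because the groups share no sample numbers. Depth is unknown. The count of all genes that passed moved most with the muscle covariate, with the centring on adipocyte markers without untreated 14, and without untreated 14 alone. The array weights moved that count little but turned the sign of 9 members. The cause was not tested.

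Of all tested genes 6 passed, against 10 with array weights, 1 with a minimum mean of 5 FPKM, 0 with no filter, 2 with a pseudocount of 0.1, 1837 with the muscle covariate, and 0 to 158 with a library left out, the highest without untreated 14. After the data were seen, centring on the adipocyte markers was added, which gave 1, and 570 with untreated 14 also left out. Among the members 0 passed except with the muscle covariate (7). Among the other droplet genes 0 passed, against 17 with that covariate, 0 to 1 with a library left out and 1 with the centring and untreated 14 left out.

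The sign of log2 fold changes turned as follows. With array weights they were -0.099 for Plin1, -0.40 for Plin2, -0.38 for Plin3, -0.19 for Plin5, -0.22 for Cidea, -0.085 for Cideb, -0.25 for Cidec, -0.096 for Fitm2, -0.36 for Bscl2 and -0.28 for Clstn3. Centred on the adipocyte markers, which shifted the median of all genes by -0.19, they were -0.089 for Plin2, -0.16 for Plin4, -0.047 for Cidec, -0.18 for Fitm2 and -0.077 for Bscl2. With that centring and untreated 14 left out they were -0.27 for Plin2, -0.25 for Plin3, -0.16 for Plin5, -0.18 for Cidea, -0.047 for Cideb, -0.13 for Cidec, -0.25 for Bscl2 and -0.20 for Clstn3. Scaled to the same median, which shifted all genes by -0.11, they were -0.014 for Plin2, -0.084 for Plin4, -0.11 for Fitm2 and -0.00065 for Bscl2. Quantile normalization gave -0.0088 for Fitm2, and the muscle covariate gave -0.15 for Plin4 and -0.62 for Fitm1.

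With each library left out in turn, log2 fold changes ran from -0.12 to 0.59 for Plin1, -0.39 to 0.41 for Plin2, -0.38 to 0.57 for Plin3, -0.21 to 0.28 for Plin4 (-0.072 without untreated 15), -0.28 to 0.57 for Plin5, -0.30 to 1.25 for Cidea, -0.17 to 1.03 for Cideb, -0.26 to 0.39 for Cidec, -0.11 to 0.083 for Fitm2 (-0.061 without treated 33/35), -0.38 to 0.40 for Bscl2, -0.32 to 1.11 for Clstn3, -0.074 to 0.75 for Hilpda, 0.22 to 1.21 for G0s2, -0.68 to -0.29 for Acsl3 and 1.41 to 5.37 for Fitm1. A lone treated library was assumed to vary like the untreated ones. The difference in the Cideb share of CIDE FPKM ran from -0.054 to 0.307 percentage points (0.178 without untreated 15), against 0.127 with all libraries. The 4 planned ratios and the other 7 shares moved by less than the SD of the untreated libraries, an SD that includes untreated 14. Each of the 4 ratios nevertheless changed sign. Without untreated 14 the difference was -0.18 in Cidea over Plin1, -0.047 in Cidea over Cidec and -0.024 in Plin5 over Cidec. In Plin5 over Plin1 it was 0.0014 without untreated 15.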
